A study of Mus musculus with 4 samples.

Results

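Isolated NR6A1 sites are sites of this nuclear receptor that had a peak in both replicates and no other peak nearby. They were defined by the positions of the deposited peaks alone: peaks that overlapped, within or between the lists, were joined into regions, and a region was kept if it held a peak of each list and no other region, of either list, had its midpoint within 50 kb. Of 28444 regions in all, 28430 lay on assembled chromosomes and 9006 of those held a peak of both replicates. The rule kept 947 of them, which is 3.33% of the regions on assembled chromosomes and 10.5% of the shared ones (95% Wilson interval 9.90 to 11.2%). The other 8059 shared regions, with at least 1 neighbour within 50 kb, are called crowded below.

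NR6A1, also called germ cell nuclear factor, is an orphan nuclear receptor that acts mainly as a transcriptional repressor. It binds DNA as a homodimer at a direct repeat of the nuclear receptor half-site with no spacer, and it is best known for silencing Pou5f1, the gene of the pluripotency factor Oct4, as embryonic cells differentiate. The microRNA family let-7, which rises late in development, represses its gene per the series title.

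The cells were an immortalized line of C57BL/6 mouse mesenchymal stem cells (MSCs), multipotent stromal cells, grown from 1 clone. All groups carried floxed alleles of Dicer, the enzyme that matures microRNAs (Dicer f/f), and are called Dicer WT. The 2 libraries used here came from cells with a puromycin-selected retrovirus for Flag-HA-NR6A1, which is tagged and expressed from the vector, so these sites are those of introduced and not of native protein. The study also has 2 libraries of cells with the empty retrovirus and the same anti-HA antibody. Their values were not analysed here, and the isolated sites are therefore given without the antibody's background. Chromatin was fixed with formaldehyde, sheared by sonication and precipitated through the HA tag (ChIP-seq). The labels do not say whether the replicates were separate cultures.

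Replicate 1 had 21496 peaks on assembled chromosomes and replicate 2 had 16154. Each peak has the authors' score, which was taken as a MACS score that rises as the peak's p-value falls. The lowest scores were 200.01 and 200.04. Exactly 3100 is shared by 239 and 187 peaks, and a score at or above it is called the ceiling here and is not ordered further. The read depth behind the scores is unknown. Scores were compared within a list, or set side by side for the same region, and include any difference in depth between the libraries. Positions are on mm9 with the first base counted as 1. No gene annotation or sequence of mm9 was used here, so the sites are given by position, and the genes and bases under them were not analysed here.

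The share of sites found in both replicates was lower for lone regions than for crowded ones. Of the 3826 regions with no neighbour within 50 kb, 947 or 24.8% held a peak of both lists (23.4 to 26.1%), where the share over all regions was 31.7%. Among the 24604 crowded regions it was 32.8% (32.2 to 33.3%). A further 1706 lone regions were in replicate 1 only, which is 44.6% of lone regions (43.0 to 46.2%), against 43.1% of crowded ones. Those in replicate 2 only numbered 1173, or 30.7% (29.2 to 32.1%), against 24.2% of crowded regions. Both the sharing and the neighbours were used by the rule, so these shares are a description with no test. The intervals cover counting error over regions and not the spread between cultures.

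The share was higher with more neighbours. It was 28.2% for regions with 1 neighbour within 50 kb (26.9 to 29.5%) and 30.6% with 2. It was 35.5% with 5 and 35.3% with 6, the one step without an increase, and with 8 or more it reached 39.3% (37.3 to 41.4%). The isolated class was the lowest of the 9 classes, and its interval did not reach that of the class with 1 neighbour.

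**Figure D1:**
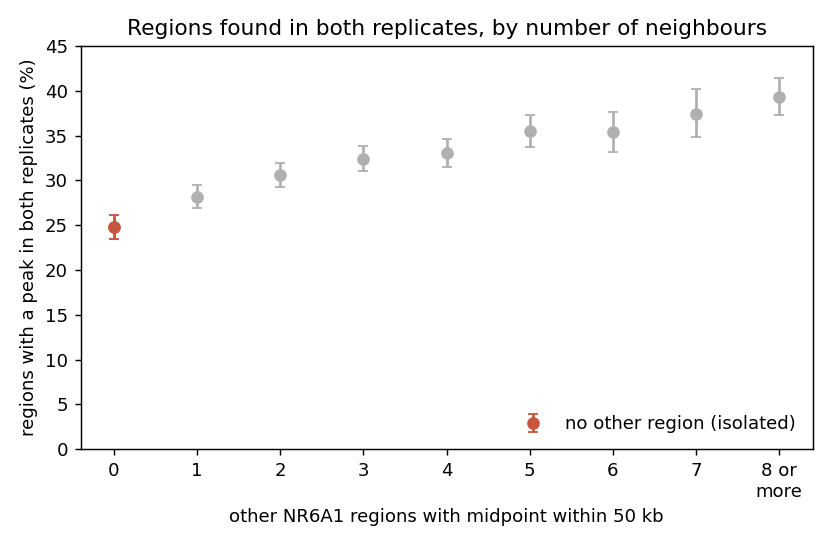
The share of NR6A1 regions that hold a peak of both replicates (y axis, percent) is plotted against the number of other regions with a midpoint within 50 kb (x axis), with 95% Wilson intervals as bars. The red point, regions with no neighbour, sits lowest at 24.8%, and the class with 8 or more neighbours is highest at 39.3%.

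Lone regions had the lower share within broad ranges of score too. Among replicate 1 regions with a score from 200 to 300, 25.5% of the lone ones were also in replicate 2 (22.7 to 28.4%), against 29.5% of the crowded ones (28.3 to 30.8%). At a score of 1000 or more the shares were 54.9% (49.2 to 60.5%) and 62.8% (61.1 to 64.5%). The gap was wider when replicate 2 was the starting list. There, 55.4% of lone regions with a score from 500 to 1000 were also in replicate 1 (50.6 to 60.0%), against 70.4% of crowded ones (68.8 to 71.9%). At 1000 or more the shares were 76.9% (71.1 to 81.8%) and 88.9% (87.4 to 90.2%). In all 4 score ranges of both lists the lone regions had the lower share, although the replicate 1 intervals from 200 to 300 overlapped. Each shared region counts in both lists, so the lists do not give independent results. Scores can still differ within a range, and peaks of these same lists chose the members, so this is a description.

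The isolated shared sites spanned the whole range of scores, and their middle lay below that of crowded shared sites. In replicate 1 their score ran from 200.13 to 3100, with a median of 457 and quartiles of 302 and 809. In replicate 2 it ran from 200.16 to 3194.93, with a median of 459 and quartiles of 298 and 810. Crowded shared regions had medians of 536 in replicate 1 and 521 in replicate 2. Their lower quartiles were 328 and 323 and their upper quartiles 980 and 930, so all 3 quartiles were higher than at isolated sites, while the ranges of both classes overlapped almost fully in each list. Shared regions with 1 neighbour had medians of 491 and 499, and those with 8 or more had 586 and 558. The isolated class had the lowest median of the 9 classes in each list, as a description, since peaks of these same lists chose the members.

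**Figure D2:**
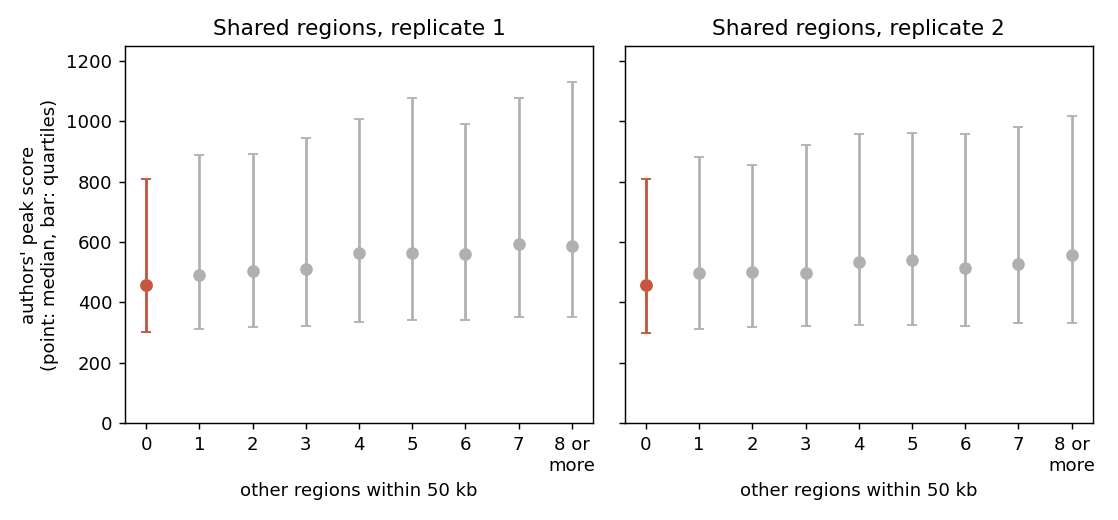
The authors' peak score of shared regions (y axis, points are medians and bars run from the lower to the upper quartile) is plotted against the number of other regions within 50 kb, for replicate 1 on the left and replicate 2 on the right. The isolated sites, in red, have the lowest median in each list (457 and 459), and their quartiles overlap those of every other class.

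Lone regions of 1 list only had lower scores still. The 1706 lone regions of replicate 1 only had a median score of 342 (quartiles 253 and 530), and the 1173 of replicate 2 only had 322 (242 and 453). Some of these reached the ceiling, with highest scores of 3100 and 3105.38. The isolated shared sites thus overlapped the lone single-list regions in score over nearly the whole range.

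Few isolated sites were strong in both replicates. A score of 1000 or more in both lists was seen at 73 of the 947, or 7.71% (6.18 to 9.58%), where the share over all shared regions was 11.0%. In replicate 1 alone 17.0% reached that score (14.7 to 19.5%), against 24.3% of crowded shared regions (23.4 to 25.3%). In replicate 2 alone it was 19.3% (16.9 to 22.0%), against 22.3% (21.4 to 23.3%), so the intervals overlapped there. At the other end, 94 isolated sites had a score under 300 in both lists, or 9.93% (8.18 to 12.0%), against 6.80% of crowded shared regions (6.27 to 7.37%). The ceiling was reached by 8 isolated sites in replicate 1, or 0.84% (0.43 to 1.66%), against 2.15% of all shared regions. In replicate 2 it was reached by 23, or 2.43% (1.62 to 3.62%), against 2.29%. In both lists it was reached by 4, or 0.42% (0.16 to 1.08%), against 0.59%. In crowded shared regions the ceiling was about as frequent in both lists, with 186 and 183 of 8059.

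The 4 isolated sites at the ceiling in both lists tied for the best mean rank. One was on chromosome 5 at 34877454 to 34879030, with a score of 3100 in each replicate and peaks of 1315 and 1577 bp. Its flanking regions lay 580 kb and 125 kb away, which left it the most room of these 4. The second was on chromosome 7 at 89682297 to 89683237, with scores of 3100 and 3194.93 and midpoints 5 bp apart. The third, on chromosome 10 at 121340985 to 121342016, had 3100 in both lists and its nearest region 57.1 kb away. The last, on chromosome 13 at 18067393 to 18068317, had 3100 in both lists and its nearest region 81.4 kb away, in replicate 1 only. All 4 had a single peak in each list.

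The next sites by mean rank were at the ceiling in 1 list and scored between 2438.03 and 3014.42 in the other. The site on chromosome 17 at 26260091 to 26261027 scored 3014.42 in replicate 1 and 3100 in replicate 2. On chromosome 1, 99666361 to 99667500 scored 2925.92 and 3100, with both flanking regions more than 100 kb away. On chromosome 3, 138188704 to 138190429 scored 2909.23 and 3100, and its replicate 2 peak of 1726 bp was far wider than its replicate 1 peak of 855 bp. On chromosome 12, 3110356 to 3111291 scored 2821.64 and 3100. No other region lay between it and the start of the chromosome. Replicate 1 held the ceiling score at the site on chromosome 8, 95855792 to 95857084, with 2580.22 in replicate 2. On chromosome 17, 34346948 to 34348255 scored 2438.03 and 3100. At 5 of these 6 sites it was replicate 2 that stood at the ceiling.

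The members were kept because their peaks overlap, which by itself holds the midpoints close, so their offset is a description. At an isolated site the peak midpoints of the 2 lists differed by 35.5 bp in the median (16.0 and 65.5 bp at the quartiles), and 85.6% of sites had them within 100 bp (83.3 to 87.7%). Crowded shared regions had a median of 36.5 bp, and 82.7% within 100 bp (81.8 to 83.5%). The scores of an isolated site were within 2-fold of each other in 70.0% of cases (67.0 to 72.8%), against 65.9% in crowded regions (64.8 to 66.9%). The lists start at 200, so a pair of scores under 300 is within 2-fold by construction. Such pairs made up 9.93% of isolated sites and 6.80% of crowded regions, so the higher share does not by itself show closer agreement. The replicate 1 score was the higher one at 48.0% of isolated sites (44.9 to 51.2%), and the log2 ratio of the scores, replicate 1 over replicate 2, had a median of -0.04 and quartiles of -0.64 and 0.65. Across the 947 sites the scores had a Spearman rho of 0.40, and across crowded regions 0.40. These are descriptions across sites of 1 pair of libraries.

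**Figure D3:**
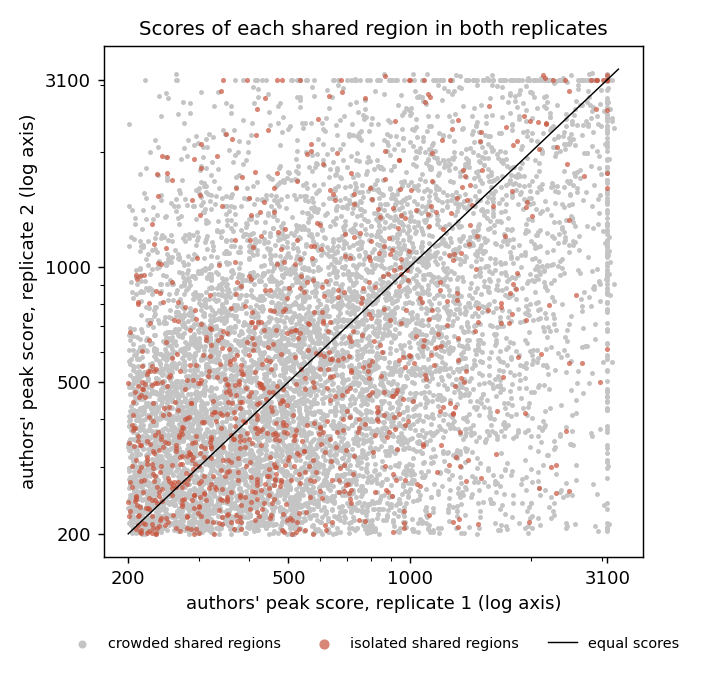
Each point is a shared region, with the authors' score in replicate 1 on the x axis and in replicate 2 on the y axis, both on log axes. Isolated sites (red) scatter around the line of equal scores like the crowded regions (grey), with 70.0% within 2-fold. Both scores are under 300 at 9.93% of isolated sites and at 6.80% of crowded regions.

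Some isolated sites scored far higher in 1 list than in the other. The replicate 1 score was more than 4-fold higher at 29 sites, or 3.06% (2.14 to 4.36%), and the replicate 2 score at 42, or 4.44% (3.30 to 5.94%). In crowded shared regions the order was the other way, with 4.26% (3.84 to 4.72%) and 3.09% (2.73 to 3.49%), and the intervals of both classes overlapped in each direction. The most unequal site was on chromosome 4 at 133698548 to 133699295, chosen like the others of this paragraph after its values were seen. It scored 2481.86 in replicate 1 and 259.56 in replicate 2. On chromosome 7, 36880401 to 36881563 scored 1977.47 and 215.03, and its nearest region lay 407 kb away. In the other direction, 71533120 to 71534096 on chromosome 15 scored 344.56 in replicate 1 and stood at 3100 in replicate 2. On chromosome 2, 109246390 to 109247266 scored 340.20 and 2900.58, with midpoints 13 bp apart. The sites named here count as shared by the overlap of their peaks, although their lower scores ran from 215.03 to 344.56.

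Isolated sites lay between the crowded shared regions and the single-list regions in width. The replicate 1 peak had a median width of 531 bp (quartiles 462 and 656, range 241 to 1532), and the replicate 2 peak of 628 bp (quartiles 536 and 758, range 324 to 2200). In crowded shared regions the medians were 582 and 665 bp. Lone regions of replicate 1 only had a median of 493 bp and those of replicate 2 only 552 bp. The replicate 2 peak was the wider one at 71.8% of isolated sites (68.9 to 74.6%) and at 70.0% of crowded ones. Width went with score in each list, with a Spearman rho of 0.70 in replicate 1 and 0.64 in replicate 2 across the 947 sites, so the narrower peaks and lower scores are not separate observations. Only 12 isolated sites, or 1.27% (0.73 to 2.20%), held more than 1 peak of a list, and 2.25% of crowded shared regions did (1.94 to 2.59%), with overlapping intervals. The site on chromosome 13 at 99160203 to 99161697 was the one with 2 peaks in each list, and its highest scores were 537.16 and 541.65. The widest site was on chromosome 19 at 19181881 to 19184080, where a replicate 2 peak of 2200 bp at the ceiling covered a replicate 1 peak of 634 bp with a score of 1001.12. The narrowest, on chromosome 12 at 105847199 to 105847562, was 364 bp across, with scores of 263.72 and 592.10. These 3 sites were also named after their values were seen.

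Most isolated sites lay not far beyond the limit that defined them. Their nearest region was a median of 81.5 kb away (quartiles 61.7 and 122 kb). Over all regions that median was 9.10 kb, a contrast that the 50 kb limit builds in. No other region lay within 100 kb of 341 sites, or 36.0% (33.0 to 39.1%), within 200 kb of 98, within 500 kb of 20 and within 1000 kb of 7. The stretch between the regions on either side of a site had a median of 270 kb. At 7 sites no region lay between the site and an end of its chromosome. The nearest other shared region was a median of 142 kb away.

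**Figure D4:**
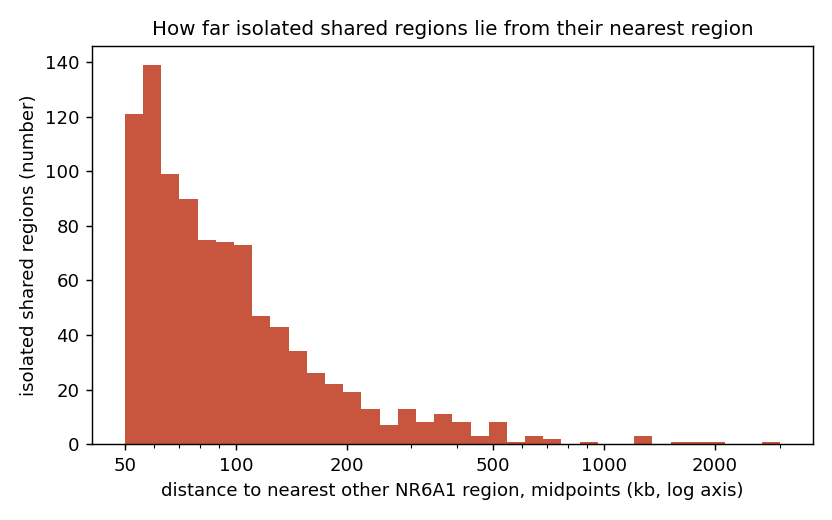
The number of isolated shared sites (y axis) is plotted by the distance from each site's midpoint to that of the nearest other NR6A1 region (x axis, kb, log axis), which the rule holds above 50 kb. The median is 81.5 kb, and 7 sites lie beyond 1000 kb.

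The nearest region was in most cases of a single list. It was in replicate 1 only for 402 sites or 42.4% (39.3 to 45.6%), shared for 293 or 30.9% (28.1 to 34.0%), and in replicate 2 only for 252 or 26.6% (23.9 to 29.5%). It was itself an isolated shared site in 112 cases, or 11.8% (9.92 to 14.0%), where such sites were 3.33% of all regions. The rule leaves that nearest region no neighbour within 50 kb on the side of the site, so some of this share is built in. Over all regions 31.7% were shared, so the neighbours of isolated sites were shared about as often as any region.

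Sites close to the limit show how the rule cuts. Just inside it, the site on chromosome 19 at 28817657 to 28818402 had its nearest midpoint 50.013 kb away and scores of 573.07 and 1057.77. The site on chromosome 3 at 57215250 to 57216122, at 50.020 kb, scored 2091.61 and 2034.77. The third, on chromosome 7 at 74761665 to 74762304, was at 50.044 kb and scored 222.73 and 523.91. Just outside it, the region on chromosome 3 at 60665644 to 60666230 was 49.954 kb from its neighbour and scored 357.66 and 206.39. The next were a pair of shared regions on chromosome 7 that were each other's neighbours at 49.938 kb. The region at 151713664 to 151714383 scored 1674.09 and 738.78, and the one at 151763591 to 151764333 scored 253.85 and 297.50. Strong and weak sites thus stood on both sides of the limit.

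The most remote sites were mostly of low or middle score. So were the isolated sites as a whole, with upper quartiles of 809 in replicate 1 and 810 in replicate 2. The farthest from any other region was on chromosome X at 57400321 to 57400860, where the nearest region lay 2822 kb away, and its scores were close to each other at 285.01 and 284.75. On chromosome 9, 18096336 to 18096881 had no region within 1928 kb and scored 574.44 and 200.34, the second of these just above the minimum. On chromosome 2, 177872260 to 177872714 was 1842 kb from its nearest region, with scores of 338.94 and 246.30. On chromosome 5, 85114789 to 85115308 was 1559 kb away and scored 352.68 and 244.35. All 4 were under 1000 in both lists.

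Sites of higher score also occurred in such stretches. On chromosome 1, 116570370 to 116571155 scored 1799.83 and 1580.26, with midpoints 18 bp apart, and the regions on either side lay 1284 kb and 3637 kb away. On chromosome 14, 82464785 to 82465511 scored 610.63 in replicate 1 and 1866.13 in replicate 2, and its nearest region was 1316 kb away. The first of these was the one site beyond 1000 kb with both scores at 1000 or more. The 10 most remote also took in 4 sites with like scores in both lists. On chromosome X, 23287352 to 23287990 scored 369.24 and 403.36, and on one side no region followed for 10183 kb. On chromosome 8, 31238051 to 31238645 scored 612.42 and 586.07. On chromosome 18, 15250180 to 15250743 scored 281.78 and 277.98. The last was on chromosome 12 at 108304663 to 108305758, with 626.01 and 680.43. The ratio of the higher to the lower score was at most 1.09 at these 4.

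Distance beyond the limit went with little change in score. The 606 sites with their nearest region at 50 to 100 kb had median scores of 469 in replicate 1 and 472 in replicate 2. The 243 at 100 to 200 kb had 448 and 414, the 78 at 200 to 500 kb had 402 and 442, and the 20 beyond 500 kb had 499 and 429. The quartiles of all 4 classes overlapped in each list. Across the 947 sites the rho of distance and score was -0.06 in replicate 1 and -0.04 in replicate 2.

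Isolated sites were found on all 19 autosomes and on X. Among the autosomes their density ranged from 0.240 to 0.525 per Mb, while that of all shared regions ranged from 1.67 to 5.74. Chromosome 11 had the most per Mb, at 0.525 (64 sites), followed by chromosome 9 at 0.484 (60 sites) and chromosome 18 at 0.452 (41 sites). Chromosome 14 had the fewest per Mb among the autosomes, at 0.240 (30 sites). Chromosome X had 28 sites, or 0.168 per Mb, and the autosomes together had 0.372, which is 2.21-fold more. For all shared regions the autosomes were 5.94-fold denser than X. These densities use full chromosome lengths, with no allowance for assembly gaps or for sequence to which reads cannot be mapped.

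Chromosome X had few shared regions, and a large part of them was isolated. Of its 101 shared regions 28 were isolated, or 27.7% (19.9 to 37.1%), against 919 of 8905 on the autosomes, or 10.3% (9.71 to 11.0%). Chromosome 12, which had 1.67 shared regions per Mb, followed with 38 of 202, or 18.8% (14.0 to 24.8%). The share was lowest on chromosome 10, with 46 of 647 or 7.11% (5.37 to 9.35%), and on chromosome 19, with 26 of 352 or 7.39% (5.09 to 10.6%), which were among the chromosomes densest in shared regions at 4.98 and 5.74 per Mb. These 4 chromosomes were named for their extreme isolated shares, and the sparser pair had the higher ones. Other chromosomes did not all follow that order. Chromosome 1 had 3.08 shared regions per Mb and 8.73% of them isolated, while the denser chromosome 11 had 4.21 per Mb and 12.5%. The rule judges isolation by spacing, so some dependence of the share on density is built in. A link beyond that was not tested.

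**Figure D5:**
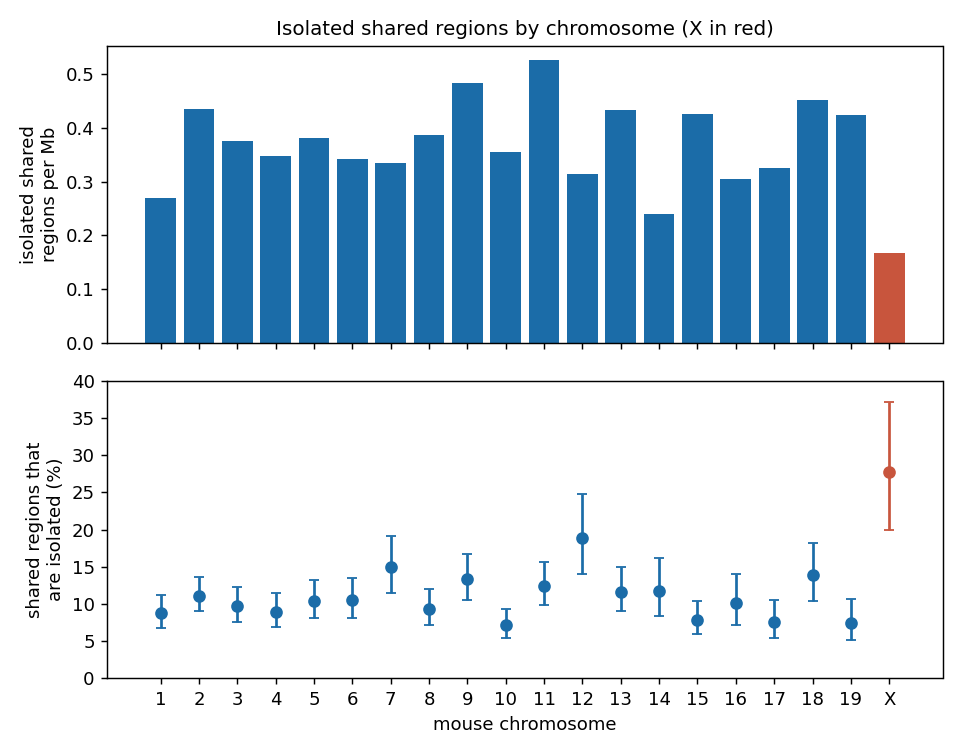
The upper plot gives isolated shared sites per Mb of each mouse chromosome and the lower plot the percentage of the chromosome's shared regions that are isolated, with 95% Wilson intervals as bars. Chromosome X (red) is lowest in the upper plot at 0.168 per Mb and highest in the lower one at 27.7%.

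Among lone regions of any kind, X was not set apart in the same way. There, 28 of 136 lone regions were shared, or 20.6% (14.6 to 28.1%), against 24.9% on the autosomes (23.5 to 26.3%), with overlapping intervals. The range over single autosomes was from 18.8% on chromosome 1 (14.7 to 23.8%) to 30.3% on chromosome 11 (24.5 to 36.8%).

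The isolated sites on X are few, and their scores are given as values only. Their replicate 1 median was 364 (range 211.03 to 1370.64), against 460 on the autosomes. Their replicate 2 median was 479 (range 206.18 to 1728.39), against 456 on the autosomes. The 73 crowded shared regions on X had medians of 457 and 518, and their replicate 1 median was likewise below that of all crowded shared regions (536). None of the 28 isolated sites reached the ceiling, which 0.84% of all isolated sites did in replicate 1 and 2.43% in replicate 2. At such low shares 28 sites are too few for this to set X apart. Crowded shared regions on X had a highest score of 3100 in each list. The site with the highest lower score on X was at 165500431 to 165501167, with 1370.64 in replicate 1 and 1728.39 in replicate 2, and it was the one X site at 1000 or more in both lists. The next, at 137797623 to 137798305, had nearly equal scores of 986.71 and 980.56. Its nearest region, 70.5 kb away, was another isolated site at 137727066 to 137727763, with scores of 913.73 and 979.54. A pair of this kind also lay at 9582877 to 9583578 and 9639094 to 9639904, 56.3 kb apart. There the first scored 211.03 and 487.75 and the second 1058.86 and 267.22, so that each was the stronger one in a different replicate. These pairs were named after their values were seen.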

How the data were processed

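Tagged NR6A1 was measured by ChIP-seq in 2 libraries, each with 1 peak list, so peaks were called per sample. Per the submitters' processing notes the tools were Bowtie 0.12.7 and MACS and the build mm9. The MACS version, the control library and the threshold are not given in the sources used here. The deposited score of each peak is the authors' value. It was taken as a log-transformed p-value from its range, its 2 decimals and the MACS peak names.

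Peaks overlapping by at least 1 bp were merged (Python 3.11.15, pandas 2.3.3, numpy 2.4.6), and bedtools 2.31.1 gave the same 28430 regions and 9006 shared regions. A region with several peaks of a list took the values of the highest-scoring one. Chromosome lengths came from GenomeInfoDb 1.38.1 in R 4.3.3, and intervals are 95% Wilson intervals (scipy 1.17.1). The region code was tested on simulated lists. No test of a difference was run, since the rule used the same peaks and there is 1 list for each replicate.

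The members were chosen with earlier results of these data known. Named sites were the 10 with the best mean rank (scores at or above 3100 tied), the 10 most remote, the 3 on each side of the 50 kb limit, and the site with the highest lower score on the autosomes and on X. Others are marked as named after their values were seen. Genes, gene lists and the receptor motif were not analysed here, because the annotation and sequence at hand are of GRCm38, another build than the lists.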

Additional observations from a re-analysis of the deposited data

How the results depend on the processing

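Under the alternatives 55 values were computed again. Of these, 33 were within 1.5-fold (number of sites) or the 95% interval (other values) of the reported value, 21 moved and 1 reversed. The 947 isolated sites became 1983 with a limit of 25 kb and 341 with 100 kb, or 22.0% and 3.79% of shared regions. When shared regions alone could break isolation there were 3222 (35.8%). When only regions with a peak of replicate 1, shared or not, counted as neighbours, there were 1425 (15.8%). With only regions holding a peak of replicate 2, shared or not, there were 2024 (22.5%). Both settings were chosen after seeing the data. In the upper 50% of each list by score, 21.6% of shared regions were isolated. These counts move by construction. Lone regions were shared in 26.2% at 25 kb, 22.1% at 100 kb and 23.2% in the upper 50%. Crowded ones were shared in 33.6% at 25 kb, 30.9% with 50% reciprocal overlap and 28.9% in the upper 50%. The lone share stayed below the crowded one under all 5 alternatives run for it. The median score was 418 in replicate 2 at 100 kb, and 497 in replicate 1 with replicate 2 neighbours alone. The replicate 1 width was 522 bp and 556 bp under the same settings. The log2 ratio of autosomes over X was 1.15 for sites per Mb and -1.43 for the share of shared regions that are isolated, which is another quantity. For the scores and widths the cause was not tested.

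No paired analysis was possible because the vector libraries were not analysed here. Leaving out a replicate leaves no shared region. The alternatives on the motif, genes and gene lists were not run. Without reads per peak, a region missing from one list, or an absent neighbour, cannot be told from one just under the threshold.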
